A study of Bos taurus with 6 samples.

Results

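The genes described here encode enzymes that build and modify the chondroitin and dermatan sulfate chains of proteoglycans. They were chosen by name, with earlier results of these data known: DSE, CSGALNACT1, CSGALNACT2, CHSY1, CHPF, CHST11, CHST12, B3GAT3, B4GALT7 and XYLT2. Probe sets whose single gene symbol in the array annotation was one of these names were taken, which gave 10 probe sets of 24016 tested and covered 7 of the 10 genes. CSGALNACT1, CHST12 and B4GALT7 had no probe set under their symbols and were not analysed here. Articular chondrocytes, the cells of joint cartilage, were isolated from full-thickness cartilage slices of bovine metacarpal-phalangeal joints and plated at high density in micromass culture. The cultures were untreated (3 arrays) or given 5 ng/ml TGF-β1 (TGF-β, 3 arrays) for 8 hours. Labelled RNA amplified from their total RNA was hybridised to Affymetrix bovine arrays. The cultures came from 3 cows, whose age is not given, and arrays are numbered 1 to 3 in both groups. The comparison asks which of these genes are regulated by TGF-β.

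A chondroitin sulfate chain is started on a serine of a core protein such as aggrecan. XYLT2, a xylosyltransferase, adds the first sugar, B4GALT7 adds a galactose, and B3GAT3 completes the linker with glucuronic acid. CSGALNACT1 and CSGALNACT2 add the first N-acetylgalactosamine, and CHSY1 with its partner CHPF lengthens the chain by alternating sugars. CHST11 and CHST12 place sulfate on the N-acetylgalactosamine, and DSE turns glucuronic acid into iduronic acid, which makes the chain dermatan sulfate. In cartilage these sulfated chains carry the negative charge that holds water in the matrix.

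Values are log2 signals that the authors centred on the median of each probe set over the 6 arrays, so a value of 0 is the middle of the arrays and levels of different genes cannot be compared. Replicate 3 stood apart from the others, as the median of 12 cell cycle genes was 2.37 and 2.497 on its untreated and TGF-β arrays against -0.31 to -0.05 on the other 4. Spike-in controls were bright on the TGF-β array of replicate 2, where 18 such probe sets had a median of 1.53 against -0.17 to 0.06 elsewhere. The 5′ signal minus the 3′ signal of 6 control transcripts had a median of -0.12 to 0.19 per array, with overlap between the groups. Being centred, these values compare the arrays with each other and do not show how intact the RNA was. Whether chondrocyte markers are present cannot be read from centred values. Of 21 probe sets for 10 such markers, 4 were higher and 1 was lower with TGF-β in the paired fit described next. Over all probe sets, 2.44% were higher and 3.46% lower. The 21 had a median difference of -0.07 log2 units and include 4 probe sets of PRG4, which the paper names as a known TGF-β target. For other cells, 0 of 10 endothelial and 0 of 8 leukocyte probe sets passed in the paired fit, 1 of 7 fibroblast probe sets was higher, and 1 of 7 osteoblast probe sets was lower.

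With TGF-β, DSE rose, 1 probe set of CHSY1 rose and 1 of CSGALNACT2 fell, while XYLT2, B3GAT3, CHPF and CHST11 did not pass the test. The test was limma with group and replicate number in the model (the paired fit, n = 3 pairs), 2-sided, with Benjamini-Hochberg adjustment over all 24016 probe sets. "Rose" and "fell" mean an adjusted p under 0.05 in that fit. Of the 10 probe sets, 2 were higher and 1 was lower. Over all probe sets tested, 2.44% were higher and 3.46% were lower. The median difference of the 10 was 0.03 log2 units, against 0.01 over all probe sets. In these cultures a change in RNA per cell and a change in the share of a kind of cell cannot be told apart.

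DSE had the largest difference of the members. Its signals on the untreated arrays were -0.68, -0.67 and -0.59 in replicates 1, 2 and 3, and on the TGF-β arrays 0.71, 0.77 and 0.59. The groups did not overlap, which was so in this direction for 6.11% of all probe sets, and replicate 3, which differed so much in cell cycle genes, lay close to the others. The pair differences were 1.40, 1.44 and 1.17, with a mean of 1.34 log2 units (SE 0.111, 95% interval 1.09 to 1.59, n = 3 pairs, adjusted p = 0.000598), which is 2.53-fold. This was the 78th largest increase of all probe sets. DSE is on the study's own list of regulated genes. That list was made from these arrays, and its direction here is no independent evidence.
DSE kept its call without any 1 replicate, with adjusted p between 8.75e-05 and 0.00935. Without the replicate number in the model its p was 1.06e-05 unadjusted and 0.214 adjusted, where limma called 0 of 24016 probe sets. The methods' unequal-variance test gave 0.000178 and 0.9997, and also called 0.

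**Figure D1:**
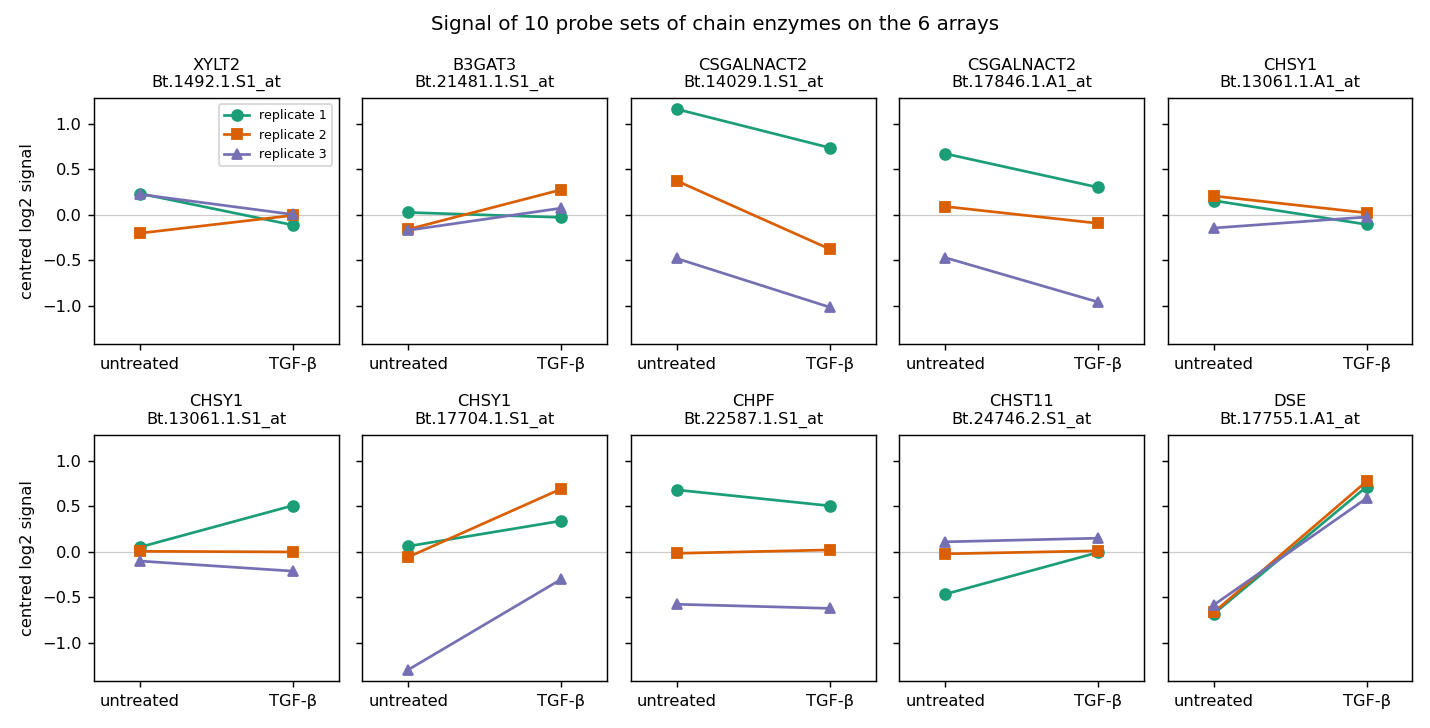
Centred log2 signal (vertical axis) of the 10 probe sets on the untreated and TGF-β arrays, with a line joining the 2 arrays of each replicate number. The lines of DSE nearly coincide and rise from about -0.6 to about 0.7, whereas those of CSGALNACT2 and CHPF run side by side at different heights.

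CSGALNACT2, the enzyme that adds the first N-acetylgalactosamine, was measured by 2 probe sets that both lay lower with TGF-β in every replicate. In Bt.14029.1.S1_at the untreated arrays read 1.16, 0.37 and -0.48 in replicates 1, 2 and 3 and the TGF-β arrays read 0.74, -0.37 and -1.01. The groups overlap widely, since the replicates differ more than the treatments do. The difference within pairs was -0.42, -0.75 and -0.54, with a mean of -0.57 log2 units (SE 0.113, 95% interval -0.83 to -0.31, n = 3 pairs, adjusted p = 0.0226), or 1.48-fold lower. In Bt.17846.1.A1_at the untreated arrays read 0.67, 0.09 and -0.47 and the TGF-β arrays 0.30, -0.09 and -0.96. Its mean difference of -0.35 log2 units (SE 0.112, n = 3 pairs) did not pass the test (adjusted p = 0.120). Of all probe sets, 20.1% were lower in each of the 3 pairs. The call of the first probe set was lost without replicate 1 (-0.64, adjusted p = 0.0511) and without replicate 2 (-0.48, adjusted p = 0.113), and with the replicate number as a random block (adjusted p = 0.381).

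CHSY1, the chondroitin synthase, was measured by 3 probe sets that did not move together. Bt.17704.1.S1_at read 0.06, -0.06 and -1.30 on the untreated arrays and 0.34, 0.69 and -0.30 on the TGF-β arrays. It was higher with TGF-β in each replicate, and the groups overlap because of replicate 3, which was low on both arrays. Its mean difference was 0.67 log2 units (SE 0.144, 95% interval 0.35 to 1.003, n = 3 pairs, adjusted p = 0.0295), or 1.596-fold. The other two probe sets had differences of -0.11 (adjusted p = 0.698) and 0.11 (adjusted p = 0.728), and each was higher with TGF-β in 1 of the 3 replicates. The mean over the 3 probe sets was 0.23 log2 units with an adjusted p of 0.202 over genes, so the rise rests on 1 probe set. Which of the 3 best measures the CHSY1 transcript was not tested. The call was also lost without replicate 2 (0.64, adjusted p = 0.169), without replicate 3 (0.51, adjusted p = 0.08998), after quantile normalization (0.64, adjusted p = 0.0548) and with the random block (adjusted p = 0.228). Here and below, quantile normalization was applied to the centred values. It gave the arrays, whose SDs ran from 0.234 to 0.470, the same spread, and so also rescaled differences.

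**Figure D2:**
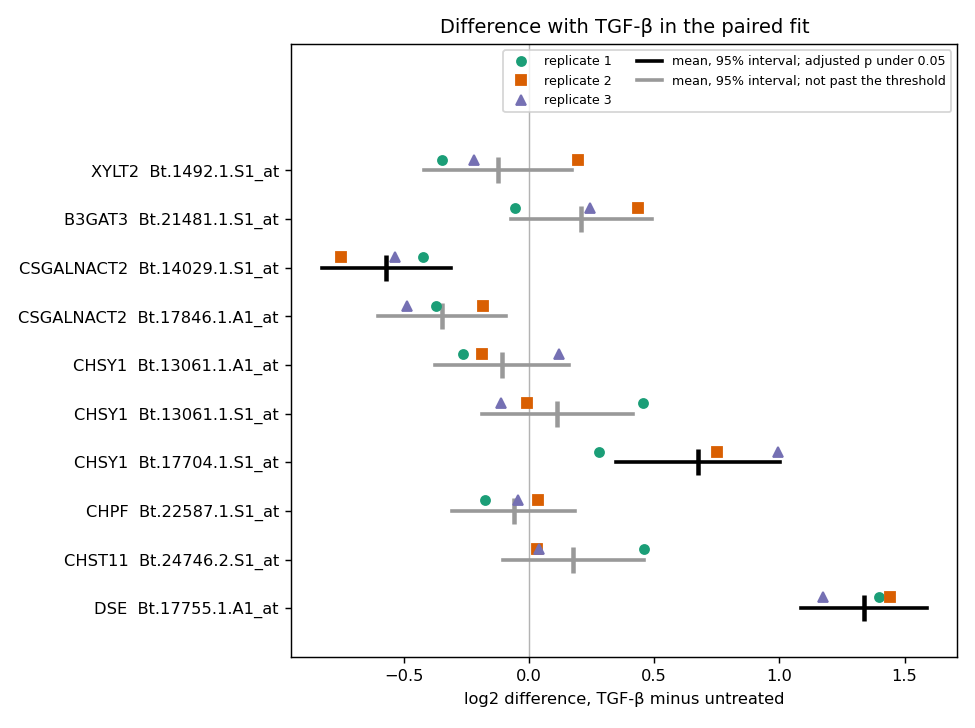
Log2 difference, TGF-β minus untreated (horizontal axis), of the 10 probe sets, with coloured points for the 3 replicates, a tick for the mean and a bar for the 95% interval of the paired fit. The intervals of DSE, 1 probe set of CHSY1 and both of CSGALNACT2 exclude 0, and that of 1 CSGALNACT2 probe set is grey because its adjusted p was 0.120.

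The remaining members did not pass the test. CHPF, the partner of CHSY1 in chain growth, read 0.68, -0.02 and -0.58 on the untreated arrays and 0.50, 0.02 and -0.62 on the TGF-β arrays. Its difference was -0.06 log2 units (95% interval -0.31 to 0.18, adjusted p = 0.831), so the bound on a rise is far below the mean rise of DSE. CHST11, the sulfotransferase, had a difference of 0.18 (95% interval -0.10 to 0.46, adjusted p = 0.5002). It was higher in each replicate, as 20.6% of all probe sets were, but most of the mean came from replicate 1 (0.46, against 0.03 and 0.04 in the others).
For the linker, B3GAT3 had a difference of 0.21 (95% interval -0.07 to 0.49, adjusted p = 0.418) and XYLT2 one of -0.12 (95% interval -0.42 to 0.17, adjusted p = 0.686). Replicate 1 was lower and the others higher in B3GAT3, while replicate 2 was higher and the others lower in XYLT2. These intervals leave room for changes in signal of up to 1.40-fold upward in B3GAT3 and 1.34-fold downward in XYLT2. How bright the probe sets are cannot be read from centred values, so the intervals bound the measured signal and not the transcript.

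Irrespective of treatment, 4 of the 10 probe sets differed between replicate numbers by the F test of the same fit (adjusted p under 0.05), against 27.5% of all probe sets. They were both probe sets of CSGALNACT2, the CHSY1 probe set that rose, and CHPF. The mean of the untreated and TGF-β arrays of CSGALNACT2 was 0.95, 0.00 and -0.75 in replicates 1, 2 and 3 (Bt.14029.1.S1_at, adjusted p = 0.000154), a 3.25-fold range. The second CSGALNACT2 probe set had the same order and a 2.30-fold range (adjusted p = 0.000932), as did CHPF with a 2.29-fold range (0.59, 0.00 and -0.60, adjusted p = 0.000825). CHSY1 was 0.20, 0.32 and -0.80 (adjusted p = 0.00318). In all 4 the lowest replicate was replicate 3, the replicate with high cell cycle genes. The part of proliferation in these values was not tested. Without replicate 3, 2 of the 10 differed between the remaining numbers. The share of all probe sets in that smaller fit was not counted, so the lower count cannot be read as particular to these genes. DSE was the member that varied least, with replicate means of 0.01, 0.05 and 0.00, a 1.04-fold range (adjusted p = 0.957).

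**Figure D3:**
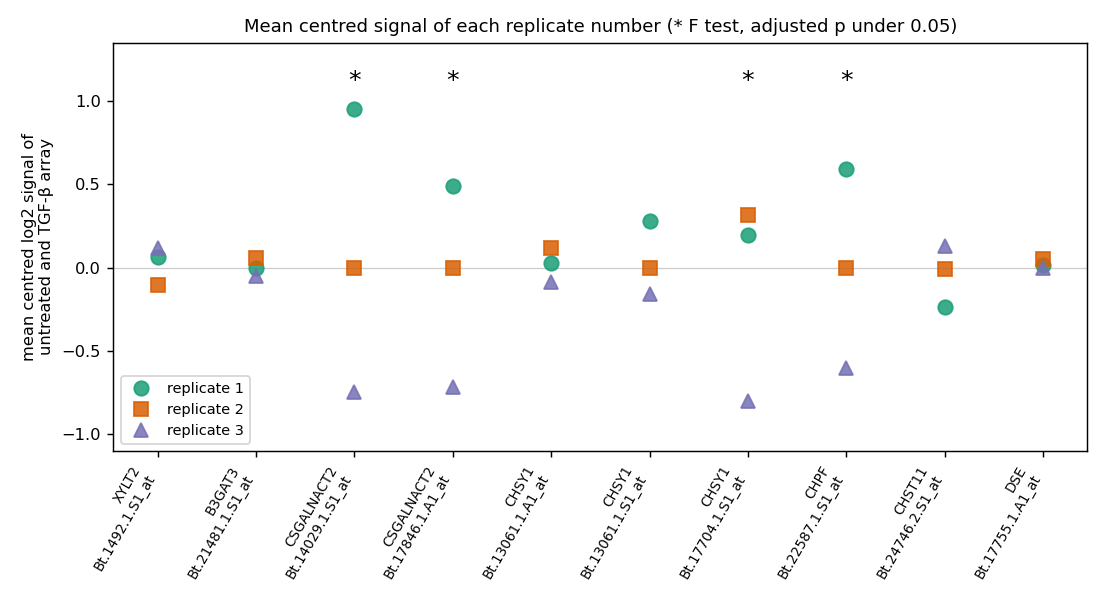
Mean centred log2 signal of the untreated and the TGF-β array of each replicate number (vertical axis) for the 10 probe sets, with an asterisk where the F test between replicate numbers had an adjusted p under 0.05. CSGALNACT2 and CHPF spread from replicate 1 at the top to replicate 3 at the bottom, while the 3 symbols of DSE lie on each other near 0.

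Over the 6 arrays, the probe sets of other genes closest to DSE were those of ADAM19, which encodes a metalloprotease (Pearson r = 0.998), GPRC5B, an orphan receptor gene (0.994), and TSKU, which encodes a secreted small leucine-rich protein (0.981). All 3 rose, by 0.64, 1.48 and 0.65 log2 units. Because DSE differed mainly by treatment, probe sets picked for likeness to it are higher with TGF-β by the way they were picked. Closest to the CHSY1 probe set that rose were SMOC2, which encodes a matricellular protein (0.989), PELI1 (0.986) and FABP6 (0.985), of which SMOC2 rose (1.10). Closest to CSGALNACT2 (Bt.14029.1.S1_at) were UBAC2 (0.997), TTC33 (0.996) and GLCE, the epimerase of heparan sulfate (0.996). Their differences with TGF-β were -0.11, -0.20 and -0.25 log2 units and did not pass the test. These correlations describe 6 arrays that share replicate numbers and were picked as the highest among all named probe sets.

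Related genes of the pathway were counted from lists of 102 genes, of which 56 were measured by 82 probe sets. Of the 82, 8 were higher (9.76%, against 2.44% of all probe sets) and 3 lower (3.66%, against 3.46%), with a median difference of 0.01 log2 units. The lists were drawn up with earlier results of these data known, so these shares are no independent evidence. Closest in role are the other chain enzymes. CHPF2, the 1 measured gene of 6 on the list of linker and chain synthesis, had a difference of 0.07 (adjusted p = 0.818). Among the other genes for sulfation and epimerization (4 of 7 measured, 9 probe sets), 0 passed in limma's paired fit. In that fit 4 of the 9 had an unadjusted p under 0.05, against 4720 of all 24016 probe sets. With limma without the replicate number or the unequal-variance test, 0 passed. DSEL, the relative of DSE, had differences of 0.50 (adjusted p = 0.0501, higher in 3 of 3 replicates) and 0.44 (adjusted p = 0.159) in its 2 probe sets, and the first passed after quantile normalization (adjusted p = 0.049). The difference between DSE and DSEL was not tested. UST, which sulfates the uronic acid, had 0.37 and 0.41 (adjusted p = 0.2005 and 0.2029).

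Among genes that supply the building blocks, PAPSS2, which makes the sulfate donor, read -1.31, -0.21 and -1.02 on the untreated arrays and 0.21, 0.34 and 1.16 on the TGF-β arrays, with no overlap. Its rise was 1.42 log2 units (SE 0.249, n = 3 pairs, adjusted p = 0.0137), and the other 5 probe sets of the sulfate supply list did not pass. BPNT1, which breaks down a by-product of sulfation, had a difference of -0.42 in its 1 probe set (adjusted p = 0.0601). The same difference passed in the paired fit of gene means, adjusted over 9174 genes (adjusted p = 0.0454). UGDH, which makes the glucuronic acid donor, read -0.34, -0.61 and -1.07 untreated and 0.50, 0.40 and 0.34 with TGF-β, also with no overlap. Its rise was 1.09 log2 units (SE 0.131, n = 3 pairs, adjusted p = 0.00279). Of 12 probe sets for UDP-sugar supply, 4 were higher and 1 was lower, against 2.44% and 3.46% of all probe sets. The hexosamine genes GFPT2 (1.74), GFPT1 (0.73 in 1 of 2 probe sets, 0.21 in the other) and GNPNAT1 (0.63) rose, and UGP2, which makes UDP-glucose ahead of UGDH, fell by 0.67. PAPSS2, UGDH and GFPT2 are on the study's own list, and PAPSS2 has its name from there, so these are not independent of it. Beyond the arrays, the paper reports higher PAPSS2 RNA with TGF-β by real-time RT-PCR in bovine micromass cultures. It also reports less Papss2 RNA and protein in cartilage of mice with a dominant-negative TGF-β type II receptor.
PAPSS2, UGDH, GFPT1 and GFPT2 kept their calls without any 1 replicate. With the replicate number as a random block, UGDH (adjusted p = 0.0223), GFPT1 (0.0342) and UGP2 (0.0489) passed, and PAPSS2 (0.0747), GFPT2 (0.0842) and GNPNAT1 (0.106) did not. GNPNAT1 lost its call without replicate 2 (adjusted p = 0.164) or 3 (0.103), UGP2 without replicate 2 (0.0558), and GFPT2 after quantile normalization (0.0596) and with a robust prior (0.112).

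Heparan sulfate genes (8 of 21 measured, 11 probe sets) and genes of chain breakdown (8 of 15 measured, 11 probe sets) had 0 calls in limma's paired fit and under each alternative. In the paired fit 5 and 2 of these probe sets had an unadjusted p under 0.05, against 4720 of all 24016. Medians of the heparan sulfate and breakdown lists were -0.09 and -0.08 log2 units. For the next 2 lists, the shares over all probe sets were 2.44% higher and 3.46% lower. Of 7 probe sets for keratan sulfate chains, those of ST3GAL1 (0.56) and 1 of 2 of B4GALT1 (0.54, adjusted p = 0.0487) rose. Neither passed without replicate 2 (adjusted p = 0.138 and 0.207) or 3 (0.126 and 0.18), and B4GALT1 did not after median centring (0.0539), after quantile normalization (0.0666) or as a gene mean (0.083). Of 25 probe sets for core proteins that carry the chains, 1 of 3 of COL12A1 rose (0.68) and 2 of 3 of CSPG4 fell (-0.77 and -0.60). COL12A1 lost its call without replicate 1 (adjusted p = 0.1001) or 2 (0.0601) and as a gene mean (0.0572), and the CSPG4 probe sets lost theirs without replicate 2 (0.0873 and 0.145). The second also did without replicate 1 (0.132) and after quantile normalization (0.0631). With the replicate number as a random block none of these 5 probe sets passed, with an adjusted p of 0.0836 for ST3GAL1, 0.116 for B4GALT1, 0.344 for COL12A1, and 0.0759 and 0.119 for CSPG4. Versican (VCAN), a large chondroitin sulfate proteoglycan, had differences of 0.79, 0.55 and 0.47 in its 3 probe sets and did not pass (adjusted p = 0.0732, 0.175 and 0.352), but the first 2 did without replicate 3 (0.99 and 0.79, adjusted p = 0.0166 and 0.034). Aggrecan (ACAN), the main carrier in cartilage, had differences of 0.13, -0.40 and -0.25 in its 3 probe sets, and none passed (adjusted p = 0.634, 0.114 and 0.264).

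**Figure D4:**
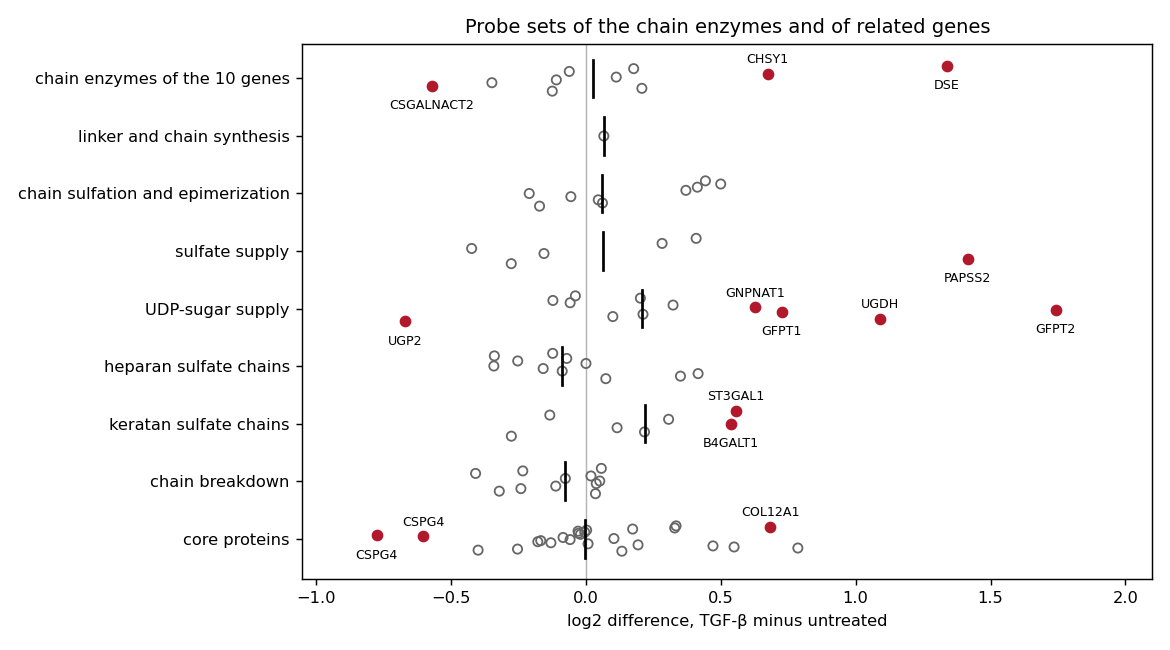
Log2 difference, TGF-β minus untreated (horizontal axis), of each probe set in the chain enzymes and 8 lists of related genes, with filled red points for an adjusted p under 0.05 in the paired fit and a black line at the list's median. DSE, PAPSS2, UGDH and GFPT2 lie above 1, while most points lie within 0.5 of 0.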

How the data were processed

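Gene expression was measured on 6 Affymetrix GeneChip Bovine Genome arrays. The authors amplified RNA in 2 cycles and used GeneSpring to turn the scans into Robust Multichip Average signals (background subtraction, normalization, summary over probes). The deposited values are on the log2 scale, centred per probe set (largest absolute median 5e-07), so dim probe sets could not be filtered out, and the 3 arrays per group limit the precision.

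After 112 controls were left out, 24016 probe sets were tested across all genes by lmFit and eBayes of limma 3.58.1 in R 4.3.3 (with statmod 1.5.0 for the random block), with group and replicate number as terms (2 residual degrees of freedom, prior SD 0.144). Symbols came from the array annotation (13292 probe sets with 1 symbol, 86 with several), updated by Entrez ID for 13263, and from the study's list for 24 others. Deviations from the group means correlated at r = 0.740, 0.694 and 0.845 between arrays of the same number and -0.683 to 0.185 otherwise, which together with the 3 cows is the basis of the pairing. The labels do not name the cow.

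The members, lists and named genes were chosen with earlier results of these data known. Named were all members, every called gene of a list with at most 5, PAPSS2 and UGDH, and the 3 probe sets most correlated with each called member. DSEL, UST, CHPF2, BPNT1, VCAN and ACAN were added after their values were seen. Figures were drawn with matplotlib 3.10.9.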

Additional observations from a re-analysis of the deposited data

How the results depend on the processing

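Of 10 member probe sets, 2 were higher and 1 lower in limma with the replicate block, and of 82 related probe sets 8 and 3. Without the replicate block, and with the methods' unequal-variance test, all 4 counts were 0 (0 of 24016 probe sets called in either, with 1377 and 1032 at an unadjusted p under 0.05). With the replicate number as a random block (consensus correlation 0.586) they were 1, 0, 2 and 1, where 312 of all 24016 probe sets were called. DSE was the member that kept its call with the random block (adjusted p = 0.0106). After quantile normalization of the centred values, and with probe sets averaged per gene and adjusted over genes, 1 member was higher. Leaving out 1 replicate at a time gave 1 to 2 members higher, 0 to 1 lower, and 4 to 7 related probe sets higher and 0 to 3 lower. In those fits 2 to 4 members differed between replicate numbers. The shares of all probe sets in them were not counted. For the treatment difference in the paired fit, leaving out 1 array of a pair is the same as leaving out the pair. This does not hold for the F test between replicate numbers. Of 100 single values of members under the alternatives, 83 kept direction and call, 14 lost the call, 1 gained it (the second CSGALNACT2 probe set, through its gene mean, -0.46, adjusted p = 0.029), and 2 reversed, both CHSY1 probe sets that had not passed: Bt.13061.1.S1_at at -0.059 without replicate 1 (0.17 without replicate 2 and 0.22 without replicate 3) and Bt.13061.1.A1_at at 0.23 as part of the gene mean. The cause of these shifts was not tested, except that the gene mean takes in the third probe set. All 14 lost calls were of the members called in the paired fit, the fewest of them in DSE. Most of the 83 were of the 7 probe sets that had not passed and again did not, so the 83 do not measure how stable the calls were. No member or related probe set was called without the pairing, and with 3 pairs the intervals of members that did not pass reach from -0.60 to 0.49 log2 units.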
